A study of Mus musculus with 5 samples.

Results

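Naive CD4 T cells that meet antigen can become helper cells of the Th1 kind, which make interferon-gamma, or induced regulatory T cells (iTreg), which restrain immune responses. The comparison described here set the iTreg culture against the Th1 culture, chosen by their sample titles, and used 2 of the 5 arrays of the series. Each culture had 1 array and there were no replicates. No test, p-value or spread between cultures could be had, and every difference is between single arrays.

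Both cultures began with naive CD4 T cells from the spleens of C57BL/6 mice. iTreg cells were cultured for 4 days with anti-CD3/CD28, IL-2 and TGF-b while IFNg and IL-4 were blocked with antibodies. Th1 cells were cultured for 4 days with anti-CD3/CD28, IL-12 and IL-2, and with IL-4 alone blocked. Stimulation through CD3 and CD28, IL-2 and the block of IL-4 were thus shared. TGF-b, IL-12 and the block of IFNg differed together, and the parts they play in any difference cannot be told apart. The labels do not say how many animals gave the cells or whether they were pooled. The other 3 arrays held Th1 cells moved on to further culture (Th1+TGFb, rested and Th1reg) and enter below as values only. Th1+TGFb cells were put in iTreg medium, with TGF-b, without rest. Rested cells were Th1 cells after rest, and Th1reg cells were put in iTreg medium after that rest. RNA was measured on 1-colour Agilent mouse arrays, and fewer cells that express a gene and less RNA per cell cannot be told apart in such bulk samples.

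A level is given below as a scaled log2 signal, the log2 intensity of a probe minus that of the array's 75th percentile, so that 0 is the 75th percentile of all spots. Differences are iTreg minus Th1, and a gene counts as higher or lower when the arrays lay at least 2-fold apart. Where a probe was not well above background on an array, the difference is only a bound, given with the words at least. Levels of different genes come from different probes and are not compared with each other. The lowest signal well above background was -3.67 in iTreg and -3.66 in Th1, and a fold is imprecise where a signal lies near it. On the iTreg array 48.6% of spots were well above background, against 45.7% on the Th1 array, and the 75th percentile of signal was 271 on the iTreg array and 239 on the Th1 array. Repeat spots of 1 probe on the same array had a median SD of 0.0656 log2 units on the iTreg array and 0.0603 on the Th1 array, which gives an SD of 0.0891 for a difference, or 0.272 where the signal was under 100. It leaves out all variation between cultures.

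The defining genes of each culture lay on the side that its label gives. Foxp3, the transcription factor that defines regulatory T cells, had a scaled log2 signal of 5.26 in iTreg and was not well above background in Th1, where its probe read -5.34, so that it was at least 482-fold higher in iTreg. Lrrc32, which encodes GARP, the surface protein that holds latent TGF-beta on regulatory T cells, stood at 6.05 in iTreg and 1.35 in Th1, a 26.1-fold difference. Tbx21, which encodes the Th1 master regulator T-bet, was 57.2-fold lower in iTreg, at 0.58 in iTreg and 6.42 in Th1. Ifng itself read 1.27 in iTreg and 10.23 in Th1 and was 498-fold lower in iTreg. Tbx21 and Ifng were well above background on the iTreg array too. The T cell genes Cd4 and Cd3e were well above background on both, with Cd4 at 4.11 in iTreg and 5.36 in Th1 and Cd3e at 6.35 in iTreg and 7.12 in Th1.

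TGF-beta binds a pair of receptor kinases that phosphorylate SMAD proteins, and in naive T cells receiving T cell receptor and IL-2 signals this pathway leads to expression of Foxp3. IL-12 acts through its receptor chains and the transcription factor STAT4, and together with interferon-gamma it raises T-bet, which in turn activates Ifng and Il12rb2. Each programme is known to restrain the other.

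The proximal promoters of 5 genes that carry the contrast are shown as RefSeq gives them for the build GRCm38.p6, from 250 bases before to 50 bases after the annotated start, 5′ to 3′ on the strand of the gene. Foxp3 (chrX:7579426-7579725, plus strand, the first of 2 starts listed), Nt5e (chr9:88327359-88327658, plus strand), Tbx21 (chr11:97115282-97115581, minus strand), Ifng (chr10:118440796-118441095, plus strand) and Il12rb2 (chr6:67376139-67376438, minus strand) were chosen as the genes of each programme that the results below turn on. Capitals mark the letters TTCNNNGAA, to which STAT proteins bind (GAS), CAGAC, the SMAD box, and GGAAA, the core bound by NFAT, on either strand.
Foxp3: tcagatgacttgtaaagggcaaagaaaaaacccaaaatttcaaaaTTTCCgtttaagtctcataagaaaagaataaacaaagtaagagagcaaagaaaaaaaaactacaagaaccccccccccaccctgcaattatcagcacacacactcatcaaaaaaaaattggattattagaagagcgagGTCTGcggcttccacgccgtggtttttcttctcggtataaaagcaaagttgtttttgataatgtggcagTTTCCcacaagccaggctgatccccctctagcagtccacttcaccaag
Nt5e: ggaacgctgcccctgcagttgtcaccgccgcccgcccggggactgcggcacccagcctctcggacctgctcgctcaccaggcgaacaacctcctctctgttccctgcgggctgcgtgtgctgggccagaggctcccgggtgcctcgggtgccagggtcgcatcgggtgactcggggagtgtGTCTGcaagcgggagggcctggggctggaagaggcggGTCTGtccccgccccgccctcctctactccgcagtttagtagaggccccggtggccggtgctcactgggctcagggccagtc
Tbx21: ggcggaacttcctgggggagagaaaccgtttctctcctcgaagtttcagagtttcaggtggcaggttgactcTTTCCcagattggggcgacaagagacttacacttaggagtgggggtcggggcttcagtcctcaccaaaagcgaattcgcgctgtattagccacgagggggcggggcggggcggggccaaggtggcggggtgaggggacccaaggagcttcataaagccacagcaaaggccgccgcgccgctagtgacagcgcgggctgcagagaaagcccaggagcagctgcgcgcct
Ifng: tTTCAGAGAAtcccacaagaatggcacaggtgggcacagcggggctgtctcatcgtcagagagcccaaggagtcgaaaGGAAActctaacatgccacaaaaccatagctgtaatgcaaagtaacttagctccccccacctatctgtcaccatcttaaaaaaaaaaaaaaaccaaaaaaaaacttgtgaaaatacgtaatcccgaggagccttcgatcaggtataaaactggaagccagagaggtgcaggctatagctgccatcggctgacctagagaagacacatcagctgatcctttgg
Il12rb2: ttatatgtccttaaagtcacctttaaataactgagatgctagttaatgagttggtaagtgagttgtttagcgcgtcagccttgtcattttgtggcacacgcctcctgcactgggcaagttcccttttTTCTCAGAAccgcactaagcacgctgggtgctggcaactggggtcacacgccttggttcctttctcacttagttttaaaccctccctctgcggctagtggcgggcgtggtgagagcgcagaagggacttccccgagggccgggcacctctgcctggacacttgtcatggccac
The SMAD box letters occur in the windows of Foxp3, at position -67 from the start, and Nt5e, at -69 and -32. The GAS letters occur in those of Ifng, at -249, and Il12rb2, at -123. NFAT core letters lie at -205 and 3 in Foxp3, at -178 in Tbx21 and at -172 in Ifng. Over 32851 promoter windows of that length, 49.6% hold the SMAD box letters, 8.30% the GAS letters and 61.3% the NFAT core letters. The T-box letters AGGTGTGA, found in 1.28% of windows, and the AP-1 letters TGANTCA, found in 7.81%, are in none of the 5 shown. Of 8 motifs searched, the other 3 are not in capitals. The KLF and Sp core letters CACCC, found in 57.5% of windows, lie at -128 in Foxp3, at -202, -114, -105 and -87 in Nt5e, at -52 in Tbx21 and at -98 in Il12rb2. The interferon response core (ISRE: GAAA, any 2 bases and GAAA again), found in 3.44% of windows, and the hypoxia-response core ACGTG, found in 19.6%, are in none of the 5. A match describes the letters of the window and no binding was measured.

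Of 13155 genes compared, 1422 (10.8%) lay at least 2-fold higher in iTreg, and 2336 (17.8%) lay at least 2-fold lower. The counts of each gene list below are to be read beside these shares of all genes. Over probes, with no choice of probe per gene, the shares were 16.3% higher and 14.2% lower. At 4-fold the counts were 358 (2.72%) and 688 (5.23%), and at 16-fold they were 46 (0.35%) and 159 (1.21%). The median difference over all genes was -0.23. The balance between the directions depended on the scaling: of the genes 2-fold apart, 37.8% were higher in iTreg in the main setting, 61.5% when arrays were scaled on probes well above background on both arrays, 58.6% with spike-in probes, 41.1% with quantile normalization and 28.9% after normexp background correction. Relative to the main setting the median of all genes moved by 0.33, 0.29 and 0.22 log2 units with detected probes, spike-ins and quantiles.

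**Figure D1:**
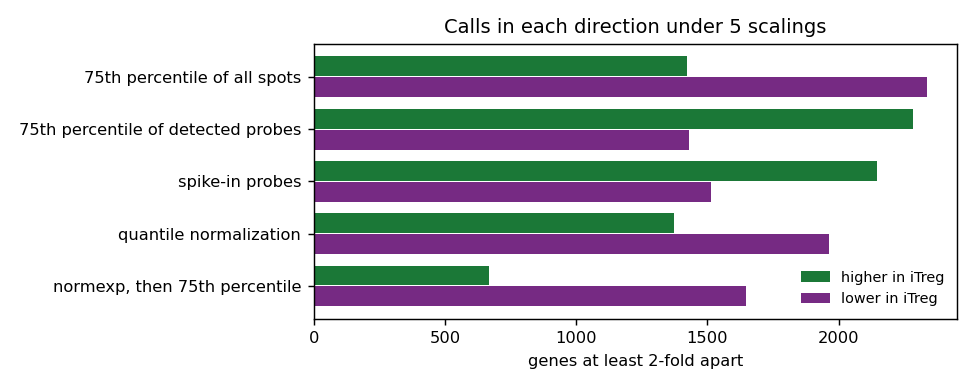
Number of genes at least 2-fold higher or lower in iTreg than in Th1 (x axis) under 5 ways of scaling the arrays (y axis), of 13155 genes compared. The lower genes outnumber the higher ones with the 75th percentile of all spots (1422 higher and 2336 lower), and the higher ones lead with detected probes (2284 and 1428) and spike-ins (2147 and 1515).

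The balance also moved with brightness. When the 11516 genes well above background on both arrays were put into 5 bins of mean signal, the median difference was 0.10 in the dimmest bin and -0.15, -0.20, -0.34 and -0.54 in those of growing signal. The share of genes 2-fold higher in iTreg was 17.0% in the dimmest bin and 1.91% in the brightest, while the share lower was 12.9% and 20.7% in those bins. The part of this trend in the difference of any bright gene was not tested.

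**Figure D2:**
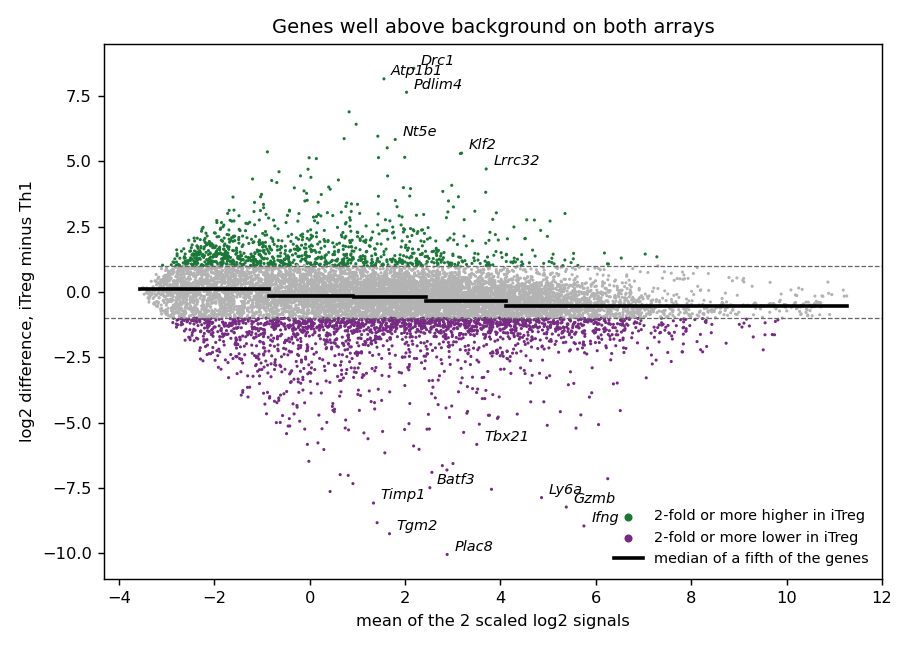
Log2 difference of iTreg minus Th1 (y axis) against the mean of the 2 scaled log2 signals (x axis) for the 11516 genes well above background on both arrays. Dashed lines mark 2-fold, black bars give the median of each of 5 bins of signal (0.10 in the dimmest and -0.54 in the brightest), and named genes are among the furthest from 0 each way.

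Of the Treg transcription factors, 7 of 22 compared genes were higher in iTreg and 3 lower, against 10.8% and 17.8% of all genes, with a median difference of 0.59. Beside Foxp3, 3 Ikaros-family genes were higher: Ikzf4, encoding the Foxp3 partner Eos, read 5.54 in iTreg and 3.50 in Th1 (4.14-fold), Ikzf2, encoding Helios, read -0.98 in iTreg and -2.62 in Th1 (3.11-fold), and Ikzf3, encoding Aiolos, was 3.34-fold higher from dim signals of -1.41 in iTreg and -3.15 in Th1. Ikzf1, encoding Ikaros, read 2.41 on both arrays. Gata3 read 2.27 in iTreg and 0.28 in Th1 (3.97-fold), and Maf read 2.41 in iTreg and 0.58 in Th1 (3.56-fold); both encode factors that regulatory T cells share with other helper cells. Foxp1 was 2.41-fold higher. The 3 lower factors all act in effector T cells: Prdm1, encoding Blimp-1, was not well above background in iTreg and stood at 2.22 in Th1 (at least 58.4-fold lower), Id2 was 6.03-fold lower and Irf4 5.01-fold lower. The interleukin-2 response factors Stat5a and Stat5b, at 3.40 and 4.42 in iTreg and 3.74 and 4.32 in Th1, were less than 2-fold apart.

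Treg surface and effector genes went both ways. Of 28 compared, 8 were higher in iTreg and 12 lower (10 and 10 with detected probes), with a median of -0.84. Nt5e, which encodes CD73, the enzyme that makes adenosine from AMP, stood at 4.71 in iTreg and -1.12 in Th1, 57.1-fold higher. Nrp1, encoding the co-receptor neuropilin-1, read 0.11 in iTreg and was not well above background in Th1 (at least 13.6-fold higher). The chemokine receptor gene Ccr8 read 2.11 in iTreg and -1.62 in Th1 (13.3-fold), with its other probe going the same way. Plagl1 (9.66-fold), Gpr83 (at least 4.70-fold) and Cd83 (2.55-fold) were also higher.

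Several genes that regulatory T cells share with activated effector cells were instead lower in iTreg. Ctla4, an inhibitory receptor gene, read 2.36 in iTreg and 4.51 in Th1 (4.45-fold lower), and the TNF-receptor family genes Tnfrsf4 (OX40), Tnfrsf18 (GITR) and Tnfrsf9 (4-1BB) were 4.64-fold, 4.44-fold and 17.0-fold lower. Icos was 4.11-fold lower and Tigit at least 9.82-fold. Il10, encoding a cytokine that suppresses inflammation, was not well above background in iTreg and stood at 1.67 in Th1, at least 39.9-fold lower. Il2ra, encoding the high-affinity IL-2 receptor chain CD25, read 8.24 in iTreg and 8.03 in Th1.

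**Figure D3:**
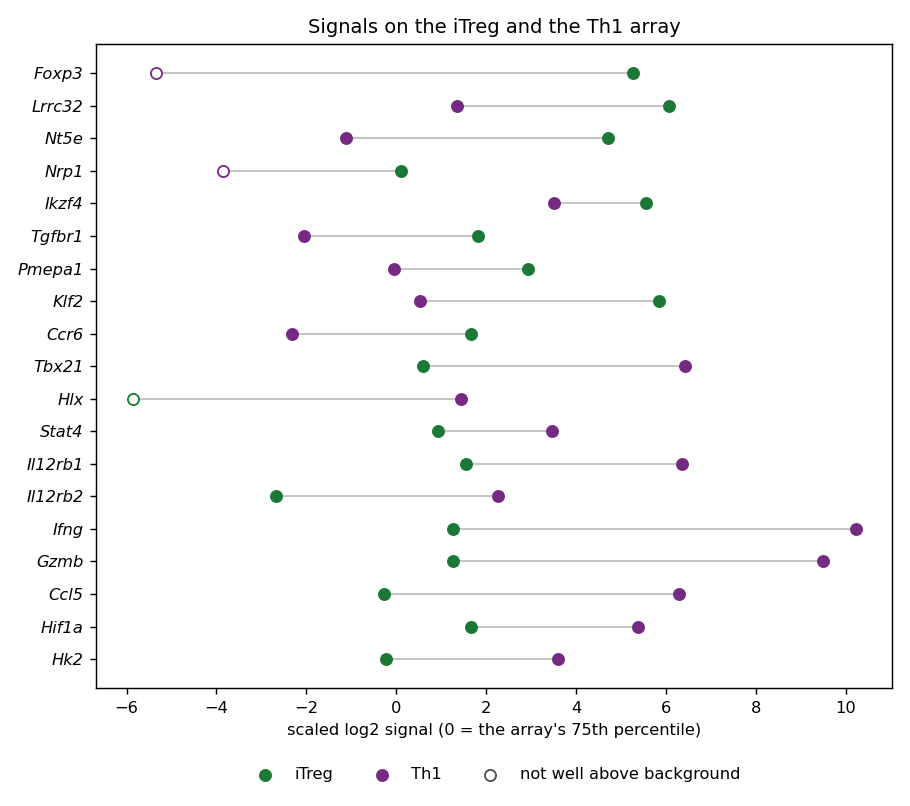
Scaled log2 signals (x axis, 0 is the 75th percentile of the array) of 19 genes named in the text on the iTreg and the Th1 array, with open circles where a probe was not well above background. Foxp3 to Ccr6 lie higher in iTreg and Tbx21 to Hk2 lie lower in iTreg, with Ifng at 1.27 in iTreg and 10.23 in Th1.

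The TGF-beta pathway differed by level of the pathway. Among genes for ligands and their activation, none of 14 reached 2-fold higher in iTreg and 6 were lower, although with detected-probe scaling the counts became 4 higher and 3 lower and with spike-ins 3 and 3. Tgfb3 stood furthest apart: it was not well above background in iTreg and read 4.06 in Th1, at least 190-fold lower. Tgfb1, the main ligand gene of T cells, read 3.32 in iTreg and 4.56 in Th1 (2.37-fold lower), but lay under 2-fold with detected probes and spike-ins. Furin, whose protease cuts the TGF-beta precursor, was 5.45-fold lower. Inhba, encoding an activin subunit, was 3.95-fold lower.

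Receptor and SMAD genes leaned the other way, with 7 of 16 higher, 3 lower and a median of 0.35. Tgfbr1, the type I receptor kinase, read 1.82 in iTreg and -2.05 in Th1 (14.6-fold higher), and its other probe was also over 2-fold higher. Tgfbr2, the ligand-binding partner, was 2.14-fold higher by its brightest probe, at 4.29 in iTreg and 3.19 in Th1, but its other probe went the opposite way. The activin receptor genes Acvr1b and Acvr2b were 4.75-fold and 4.66-fold higher, Acvr2a at least 3.99-fold, and the BMP pathway genes Bmpr2 and Smad5 were 3.23-fold and 3.40-fold higher. The co-receptor genes Tgfbr3 and Eng and the type I receptor gene Acvrl1 were 2.76-fold, 2.75-fold and 2.48-fold lower. The signal transducers themselves lay close together: Smad2 differed by -0.21, Smad3 by -0.06 and Smad4 by 0.41 log2 units.

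Feedback and target genes of the pathway had 7 of 18 members higher and 3 lower, with a median of 0.82. These counts depended on the setting: 11 were higher and 3 lower with detected probes and spike-ins, 4 and 3 with normexp, and 3 and 2 over probes well above background on both arrays. Pmepa1, whose product binds SMADs and dampens the signal, read 2.93 in iTreg and -0.06 in Th1 (7.94-fold higher). Its relative Ldlrad4 read 0.14 in iTreg and was not well above background in Th1 (at least 11.3-fold higher). Skil, encoding the co-repressor SnoN, was 5.08-fold higher, at 2.79 in iTreg and 0.44 in Th1. The inhibitory SMAD genes Smad7 and Smad6 were at least 3.44-fold and 3.02-fold higher from dim signals of -1.75 and -2.06 in iTreg. Id1 was at least 2.82-fold higher and Tgif1 2.29-fold. Bhlhe40 (7.61-fold) and Nedd9 (3.21-fold) were among the lower members.

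**Figure D4:**
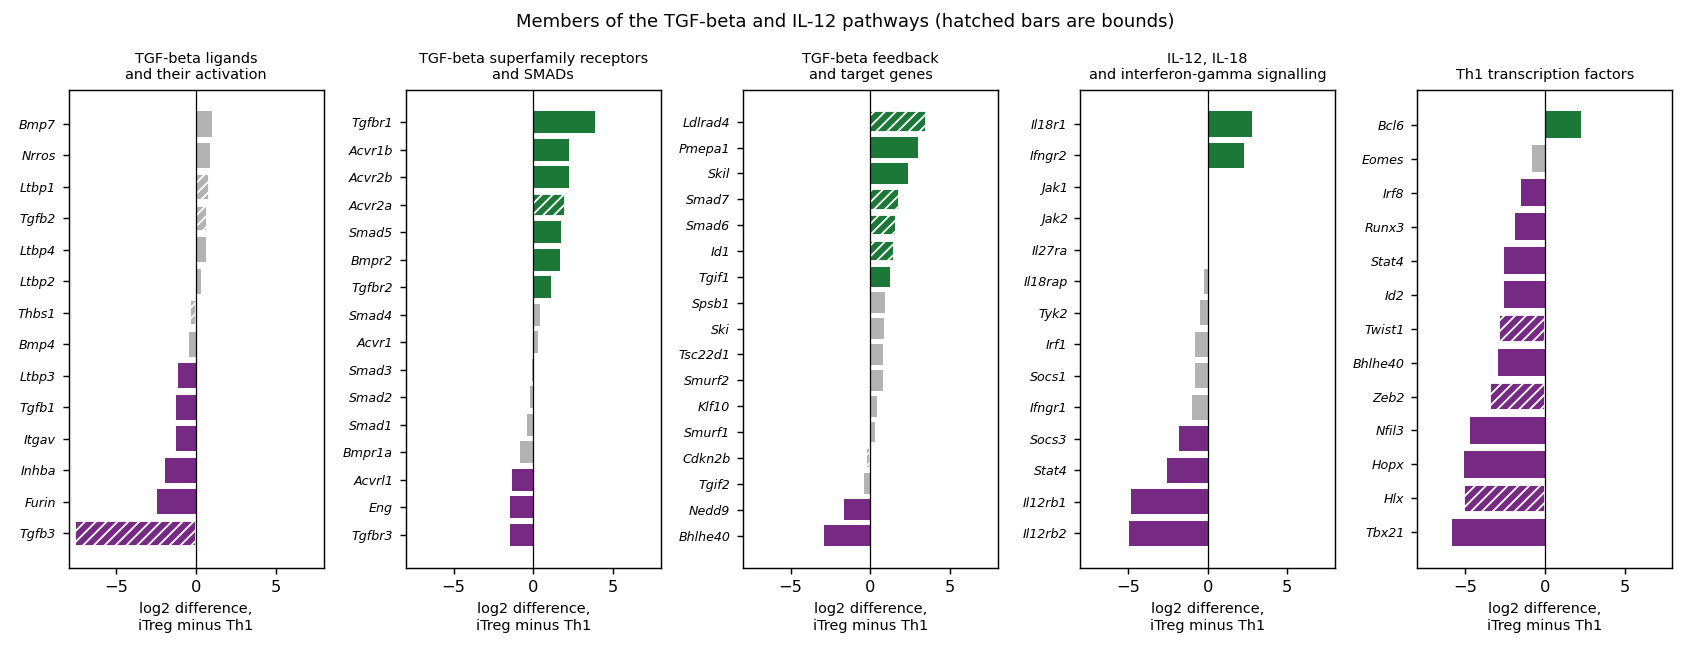
Log2 difference of iTreg minus Th1 (x axis) for members of 5 gene lists (panels, genes on the y axis; a few compared members are not drawn); hatched bars are bounds and grey bars lie under 2-fold. In the main setting receptors and feedback genes of TGF-beta hold 7 higher members each. Ligands hold none higher and 6 lower, which became 4 and 3 with detected probes. Of Th1 transcription factors 11 of 13 are lower in iTreg.

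Genes that receive the IL-12 signal were lower in iTreg, whereas the kinases they share with other cytokines lay close together. Il12rb2 read -2.68 in iTreg and 2.27 in Th1 (30.9-fold lower). That iTreg signal is near the lowest signal well above background, so the fold is imprecise. Il12rb1 read 1.56 in iTreg and 6.35 in Th1 (27.7-fold lower). Stat4 stood at 0.92 in iTreg and 3.47 in Th1, 5.84-fold lower. Jak2 differed by 0.05, Jak1 by 0.10 and Tyk2 by -0.50 log2 units. Interferon-gamma receptor chains were split: Ifngr2 was 4.91-fold higher in iTreg, at 2.47 in iTreg and 0.17 in Th1, while Ifngr1 differed by -0.97. Il18r1, a chain of the IL-18 receptor, was also higher in iTreg (6.85-fold, at 5.23 in iTreg and 2.45 in Th1, with its other probe alike), and its partner Il18rap differed by -0.26. In this list of 15 genes 2 were higher and 4 lower, near the 10.8% and 17.8% of all genes.

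Among Th1 transcription factors 11 of 13 were lower in iTreg and 1 higher, with a median of -2.89, and these counts were the same under detected-probe, spike-in and quantile scaling and under normexp. Hlx, which works with T-bet on Ifng, was not well above background in iTreg and read 1.43 in Th1 (at least 33.7-fold lower). Hopx stood at 1.02 in iTreg and 6.09 in Th1 (33.5-fold lower), and Nfil3 at 1.39 in iTreg and 6.11 in Th1 (26.4-fold lower). Zeb2 and Twist1 were at least 11.1-fold and 7.43-fold lower, and Runx3, a T-bet partner, was 3.73-fold lower. Eomes, the T-bet relative of killer cells, differed by -0.83 from dim signals of -1.91 in iTreg and -1.09 in Th1. The exception, Bcl6, a repressor that opposes T-bet, read 2.90 in iTreg and 0.61 in Th1 and was 4.89-fold higher. Batf3, a bZIP factor expressed in Th1 cells, had one of the largest differences of all, -1.23 in iTreg against 6.27 in Th1 (180-fold lower), and its relative Batf was 5.54-fold lower.

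Of 24 T cell cytokine genes compared, Ifng included, 11 were lower in iTreg and 4 higher, with a median of -0.85. Il21, whose product acts on B cells and T cells, was not well above background in iTreg and read 5.21 in Th1 (at least 464-fold lower). The macrophage growth factor gene Csf1 stood at -1.70 in iTreg and 3.21 in Th1, 29.9-fold lower with both other probes alike. Il24 was at least 28.3-fold lower, Spp1 (osteopontin) 16.7-fold and Lif 6.60-fold. The higher members were Tnfsf11, encoding RANKL (0.03 in iTreg, not well above background in Th1, at least 12.8-fold), Il2 (-0.30 in iTreg and -3.04 in Th1, 6.70-fold), Il3 (5.20-fold) and Il17f (at least 5.67-fold). The Th1 signal of Il2 is near the lowest signal well above background, so its fold is imprecise. Neither array read Il4, Il13 or Il17a well above background, and Tnf differed by -0.38.

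Chemokine genes divided sharply. Ccl5, a chemoattractant for T cells and monocytes, read -0.28 in iTreg and 6.29 in Th1 (95.1-fold lower). Ccl4 and Ccl3, both attractants of inflammatory cells, were 14.5-fold and 12.3-fold lower, and the interferon-induced Cxcl10 was at least 15.7-fold lower. On the other side, Ccl1, the ligand of CCR8, read 3.40 in iTreg and was not well above background in Th1 (at least 133-fold higher), and Xcl1, the ligand of XCR1, read 3.93 in iTreg and 0.26 in Th1 (12.7-fold higher). Of 15 ligand genes with a probe 7 were dim on both arrays, and of the 8 compared 2 were higher and 5 lower. Their median of -3.64 became -0.0288 with no floor and no filter, where the dim genes enter.

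Among chemokine and egress receptors 6 of 17 were higher and 3 lower, with a median of 0.53. Cx3cr1, the fractalkine receptor gene, read 2.05 in iTreg and was not well above background in Th1 (at least 52.1-fold higher, both other probes alike). Ccr6, a receptor gene of Th17 and regulatory T cells, read 1.67 in iTreg and -2.31 in Th1, 15.8-fold higher. Cxcr1, a chemokine receptor gene of neutrophils, was not well above background in iTreg and stood at 4.53 in Th1, at least 290-fold lower. The homing receptor gene Ccr7 differed by -0.39 and Cxcr3, a Th1 receptor gene, by -0.92.

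Integrin and adhesion genes had 4 of 20 members higher and 7 lower, against 10.8% and 17.8% of all genes. The sign of their median, -0.30, turned with detected-probe and quantile scaling (0.0404 and 0.00726). Itga4 (9.59-fold) and Itga6 (8.01-fold, at 6.85 in iTreg and 3.85 in Th1) were higher, as was Cd96 (10.3-fold). Itga3 (14.9-fold), the collagen receptor chain Itga1 (5.94-fold) and Itgal, the LFA-1 chain (3.48-fold), were lower.

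Killing machinery was lower in iTreg. Of 20 compared cytotoxic effector genes 15 were lower and 1 higher, with a median of -2.50, and between 13 and 16 were lower under the other scalings and normexp. Gzmb, encoding granzyme B, read 1.26 in iTreg and 9.50 in Th1 (301-fold lower). Prf1, encoding the pore-forming perforin, read 0.37 in iTreg and 3.48 in Th1 (8.58-fold lower), and Srgn, encoding the granule proteoglycan serglycin, was 11.5-fold lower. Nkg7 stood at 3.33 in iTreg and 8.04 in Th1 (26.1-fold lower, its other probe alike), and the killer-cell receptor gene Klrc1 was 22.3-fold lower. Gzmc was 65.5-fold lower and Gzme at least 24.2-fold, but Gzmc to Gzmg are near-identical copies and the signal of each is uncertain. The higher gene was Ctsw, encoding cathepsin W (2.78-fold, at 6.27 in iTreg and 4.79 in Th1).

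Of 17 Th2, Th17 and Tfh genes 9 were higher and 6 lower, against 10.8% and 17.8% of all genes. Their median of 1.02 became 0.00677 with no floor and no filter. Rora, encoding a nuclear receptor of Th17 cells, was 3.03-fold lower, and Sh2d1a, encoding the adaptor SAP, 2.22-fold. Ahr, encoding the aryl hydrocarbon receptor, read 0.65 in iTreg and -2.58 in Th1 (9.34-fold higher). Its target Ahrr was at least 6.01-fold higher, while another target, Tiparp, was 2.45-fold lower. In the list of aryl hydrocarbon, retinoid and vitamin D genes 8 of 16 were higher and 4 lower (9 and 1 with detected probes and spike-ins, 4 and 4 over probes well above background on both arrays). The retinoid genes Rarg and Dhrs3 were 5.15-fold and at least 11.2-fold higher, and Nr1d2, a clock repressor, at least 9.52-fold. Crabp2, a carrier of retinoic acid, was the clear exception, at 2.98 in iTreg and 8.19 in Th1 (37.1-fold lower).

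Quiescence genes included some of the largest differences in favour of iTreg, with 9 of 30 higher and 4 lower and a median of 0.48. Klf2, a factor that keeps T cells resting and controls their egress, read 5.84 in iTreg and 0.53 in Th1 (39.8-fold higher). Klf3 read 4.57 in iTreg and -0.58 in Th1 (35.6-fold higher, its other probe alike). Il6ra was 6.56-fold higher, its signalling partner Il6st 3.13-fold, and Tcf7, encoding TCF-1, 5.14-fold. Foxo1, Lef1, Bach2 and S1pr1, all expressed in resting T cells, differed by 0.84, 0.64, 0.65 and 0.79. The list did not move as 1 block: Satb1 stood at 3.79 in iTreg and 7.29 in Th1 (11.3-fold lower), and Il7r (5.51-fold) and Klf6 (2.57-fold) were lower too.

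Activation genes were lower in part. Of 26 immediate-early and feedback genes 12 were lower in iTreg and 2 higher. The AP-1 and stress genes Fosl2 (-0.44 in iTreg, 4.60 in Th1, 33.0-fold), Atf3 (24.1-fold) and Ier3 (19.3-fold) led the lower side, followed by Dusp5 (6.97-fold), Junb (4.99-fold) and Dusp4 (4.71-fold). Nr4a1 and Egr2, which report T cell receptor signals, and Myc lay close together: Nr4a1 read 6.61 in iTreg and 6.80 in Th1, Egr2 differed by 0.05 and Myc by -0.06. Fosb (2.46-fold) and Jun (2.02-fold) were higher.

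T cell receptor and proximal signalling genes had 11 of 28 members lower and 1 higher, with a median of -0.70 that became 0.03 with quantile normalization, where 3 were lower and 2 higher. Cblb, a ubiquitin ligase that limits T cell activation, was 10.5-fold lower, at 0.88 in iTreg and 4.27 in Th1. Themis was 4.06-fold lower, Cd28 3.78-fold and Cd3d 2.80-fold, whereas Lck and Zap70 differed by -0.70 each. Inhibitory receptor genes had 7 of 15 lower and none higher, a count that was the same under the other scalings and normexp. Lag3 stood at -1.59 in iTreg and 4.03 in Th1 (49.2-fold lower), while Pdcd1, encoding PD-1, differed by -0.69. Of 19 costimulatory and TNF-receptor family genes 10 were lower and 2 higher. Slamf7 was at least 29.3-fold lower and Slamf6 7.29-fold higher, at 1.51 in iTreg and -1.35 in Th1. Cytokine receptors had 9 of 25 lower and 5 higher, which became 5 and 5 with detected probes and spike-ins. Il21r was 8.23-fold lower. In the SOCS family of cytokine feedback inhibitors 6 of 8 genes lay under 2-fold apart. Socs2 was 8.16-fold higher (5.43 in iTreg and 2.40 in Th1, both other probes alike) and Socs3 3.53-fold lower.

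Glycolysis was the metabolic list furthest below all genes, with 17 of 24 genes lower in iTreg, 1 higher and a median of -1.69. The numbers lower were 15 with detected probes and spike-ins and 13 with quantiles. Glucose uptake and entry led: the transporter gene Slc2a3 read 1.21 in iTreg and 5.03 in Th1 and hexokinase Hk2 read -0.23 in iTreg and 3.59 in Th1, both 14.2-fold lower. The lactate exporter gene Slc16a3 stood at 3.65 in iTreg and 7.20 in Th1 (11.7-fold lower). Between these steps Aldoc was 9.25-fold lower, Tpi1 6.11-fold, Pgk1 4.91-fold, Gapdh 3.12-fold and Ldha 2.10-fold. Ldha lay under 2-fold with detected probes, spike-ins and quantiles (-0.74, -0.78 and -0.47 log2 units). All 6 other probes of Gapdh were also at least 2-fold lower, whereas Actb differed by -0.41. Most genes of the list fall in the brightest bin of genes, whose median was -0.54. Among them are Slc16a3, Aldoc, Tpi1, Pgk1, Gapdh, Ldha and Aldoa, whereas Slc2a3 and Hk2 lie in dimmer bins. Eno3, encoding the muscle form of enolase, was 2.67-fold higher.

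Hypoxia-inducible genes had 13 of 22 members lower and none higher, with a median of -1.30. Hif1a, encoding the oxygen-regulated subunit of HIF-1, read 1.66 in iTreg and 5.38 in Th1 (13.2-fold lower). Its targets Egln3 (26.4-fold), Ak4 (15.2-fold) and Bnip3 (9.75-fold, both other probes alike) were lower, whereas the targets Vegfa and Pdk1 differed by -0.51 and -0.22. The other probe of Vegfa was, however, at least 2-fold lower. Tricarboxylic acid cycle and fatty acid oxidation genes lay mostly under 2-fold, with 3 of 25 lower and none higher, against 17.8% and 10.8% of all genes. Their median of -0.36 turned to 0.13 with quantile normalization. Acadl was 5.18-fold lower, while Cpt1a, the gate of fatty acid oxidation, differed by 0.13.

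Sterol and fatty acid synthesis genes had 15 of 26 lower and 2 higher (median -1.08), but 8 lower with detected-probe, spike-in and quantile scaling. Fdps was 3.53-fold, Fdft1 3.08-fold and Msmo1 3.06-fold lower, all enzymes of cholesterol synthesis. Abcg1, which exports cholesterol, was 6.80-fold higher, at 4.62 in iTreg and 1.86 in Th1, and Fasn 2.53-fold higher. Of 19 genes of amino acid supply and ATF4 targets 12 were lower and 1 higher. Chac1, which degrades glutathione, read -2.73 in iTreg and 2.52 in Th1 (38.1-fold lower). That iTreg signal is near the lowest signal well above background, so the fold is imprecise. Asparagine synthetase Asns was 17.0-fold lower and Atf4 itself 2.40-fold lower. The glutamine transporter gene Slc38a2 was 2.13-fold higher.

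**Figure D5:**
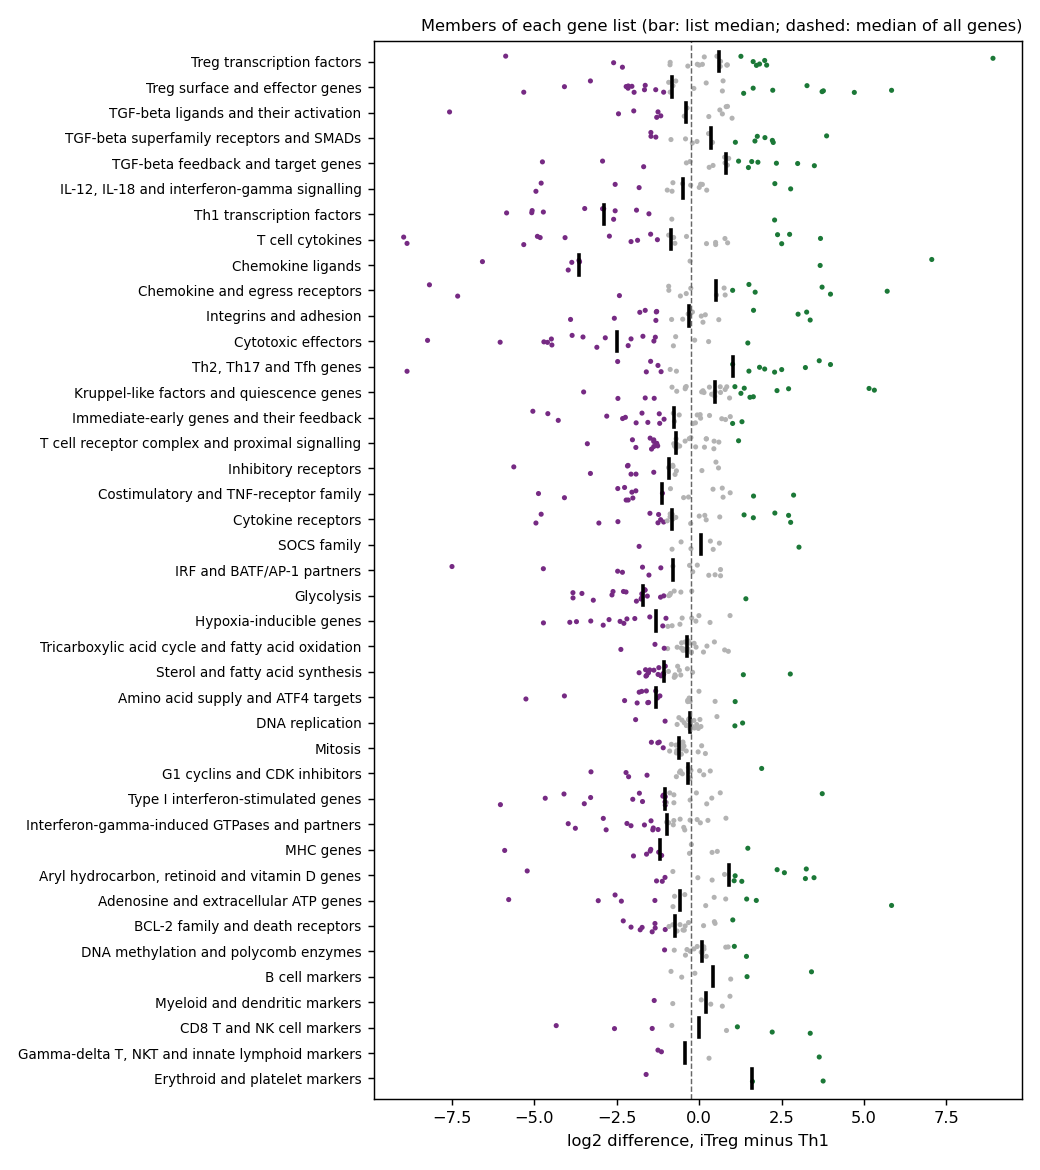
Log2 difference of iTreg minus Th1 (x axis) of every compared member of 41 gene lists (y axis); green points are at least 2-fold higher in iTreg, purple at least 2-fold lower, grey under 2-fold. Black bars are list medians and the dashed line is the median of all genes, -0.23; chemokine ligands (-3.64, over 8 compared genes), Th1 transcription factors (-2.89), cytotoxic effectors (-2.50) and glycolysis (-1.69) lie furthest below it among the lists of more than 5 genes.

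Cell cycle genes differed little. Of 25 DNA replication genes 2 were higher and 2 lower, with a median of -0.27 that became 0.07, 0.02 and 0.27 with detected probes, spike-ins and quantiles. Mki67, a proliferation marker, read 6.84 in iTreg and 6.65 in Th1, and Pcna differed by -0.39. Mitosis genes had 4 of 23 lower, a share near the 17.8% of all genes, and none higher (1 lower with detected probes and spike-ins). Of 17 G1 cyclin and CDK inhibitor genes 12 lay under 2-fold apart, with 4 lower and 1 higher, against 17.8% and 10.8% of all genes. Their median of -0.33 became 0 with detected probes. Among the inhibitor genes, Cdkn1a, encoding p21, stood at 1.98 in iTreg and 5.26 in Th1 (9.71-fold lower). Cdkn2d and Cdkn2a were 4.65-fold and 4.40-fold lower, and Cdkn1c was 3.72-fold higher.

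In the 2 lists of interferon-induced genes most members were lower in iTreg or close together. These lists do not hold Ifi203, Apol9a and Apol9b, which were higher in iTreg and are given below. Type I interferon-stimulated genes had 13 of 23 lower and 1 higher (8 lower with detected probes and spike-ins), and interferon-gamma-induced GTPases and partners had 11 of 23 lower and none higher. Usp18, a brake on interferon signalling, read -0.72 in iTreg and 5.31 in Th1 (65.2-fold lower), Oas3 was 25.4-fold and Isg15 9.79-fold lower. Gbp2 and Gbp7 were 7.49-fold and 7.06-fold lower, while the related GTPase genes Tgtp2 and Irgm2 differed by 0.04 and -0.06. Rtp4 was 13.3-fold higher. Irf1, an interferon-induced factor gene, differed by -0.79. Of 12 MHC genes 7 were lower and 1 higher, against 5 lower and 1 higher with detected probes and spike-ins, and 3 lower and 2 higher with quantiles. The class II gene H2-Ab1 read -0.77 in iTreg and 5.13 in Th1 (59.6-fold lower, its other probe alike), whereas Cd74, the class II invariant chain, was 2.78-fold higher. B2m was 3.02-fold lower. Gbp, Oas and H2 genes belong to families of similar sequence, and the signal of each member is uncertain.

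Adenosine and ATP genes had 3 of 14 higher and 5 lower, against 10.8% and 17.8% of all genes. Nt5e was joined by the nucleoside transporter gene Slc29a1 (2.72-fold) and the NAD-consuming ectoenzyme gene Cd38 (3.33-fold), while receptor genes were lower: P2ry14 at least 54.8-fold, Adora2b 8.34-fold, P2rx7 5.85-fold and Adora2a 5.13-fold. Entpd1, encoding CD39, which supplies AMP to CD73, was not well above background in iTreg and read -2.85 in Th1. In the BCL-2 and death receptor list 8 of 20 were lower and 1 higher, against 17.8% and 10.8% of all genes. Bcl2l11, encoding the killer protein BIM, was 4.93-fold lower and Bcl2l1, encoding the survival protein BCL-XL, 2.53-fold lower. DNA methylation and polycomb enzymes were mostly within 2-fold, with 2 of 16 higher, near the 10.8% of all genes, and 1 lower. The de novo methyltransferase gene Dnmt3b was 2.71-fold higher with both other probes alike, and the maintenance enzyme gene Dnmt1 differed by -0.16.

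By size alone, the furthest gene above Th1 that both arrays measured was Drc1. This gene, for a subunit of the dynein regulatory complex of cilia, read 6.47 in iTreg and -2.10 in Th1 (378-fold). Atp1b1, a sodium pump subunit, read 5.64 in iTreg and -2.52 in Th1 (286-fold). Pdlim4, encoding a cytoskeletal adaptor, was 200-fold higher. They were followed by Ncmap (62.4-fold), Actr3b (58.4-fold), the imprinted RNA H19 (45.8-fold), Stxbp6 (41.1-fold) and the steroid-converting enzyme gene Akr1c18 (39.3-fold). Ifi203 (119-fold), Apol9a (85.6-fold) and Apol9b (at least 368-fold) belong to families of similar genes and their signals are uncertain. The Th1 signals of Stxbp6, Ifi203 and Atp1b1 (-3.57, -2.62 and -2.52) lie near the lowest signal well above background on that array, -3.66. These folds are therefore imprecise, and the difference of Stxbp6 went from 5.36 to 3.68 log2 units with normexp. With normexp the difference of Drc1 also went from 8.56 to 7.23 and that of Atp1b1 from 8.16 to 6.85. Bounds were at least 121-fold for Capn3, at least 77.2-fold for Tbc1d16, at least 71.4-fold for Nav1 and at least 48.3-fold for She, each not well above background in Th1.

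The largest differences the other way were Plac8, at -2.14 in iTreg and 7.91 in Th1 (1062-fold lower, its other probe alike), and Tgm2, encoding a transglutaminase, at -2.96 in iTreg and 6.30 in Th1 (612-fold lower, its other probe alike). Serpinf1 (457-fold) and Serpinb5 (at least 1447-fold) encode members of the serpin family, and Timp1 (271-fold) an inhibitor of matrix proteases. The iTreg signals of Tgm2, Serpinf1 and Timp1 (-2.96, -3.00 and -2.70) lie near the lowest signal well above background on that array, -3.67, so these folds are imprecise. Ly6a, encoding Sca-1, was 235-fold lower and Ly6c1 142-fold, both in a family of similar genes, as are Lilrb4a (188-fold) and Lilr4b (at least 225-fold). Sema3b (162-fold), the leukotriene B4 receptor gene Ltb4r1 (130-fold), the short-chain fatty acid receptor gene Ffar2 (at least 417-fold) and Selp, encoding P-selectin (at least 165-fold), completed the set. The iTreg signals of Sema3b and Ltb4r1 (-2.76 and -2.70) lie as near to that lowest signal as that of Timp1, so their folds are imprecise too. The difference of Plac8, dim in iTreg as well, went from -10.05 to -8.88 log2 units with normexp.

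Markers of other cell types were low or mixed. Of 10 B cell markers with a probe, 6 were well above background in iTreg and 5 in Th1, and their summed signal, in units of the 75th percentile, was 2.94 in iTreg and 1.84 in Th1. Neither array read the defining marker Cd79a well above background, while Cd79b was at least 10.6-fold higher in iTreg and Ms4a1 2.74-fold higher. CD8 T and NK markers summed to 8.92 in iTreg and 20.2 in Th1, with 6 of 11 well above background on each array: Cd8a read -0.29 in iTreg and was not well above background in Th1 (at least 10.3-fold higher), Cd8b1 differed by 0.83, and the NK gene Klra8 was at least 20.2-fold lower. Neither array read Ncr1 well above background. Of 16 myeloid markers, 10 were dim on both arrays, among them Lyz2 and S100a8. Siglech, Csf3r and Itgam gave bright signals on both (8.71, 8.59 and 6.58 in iTreg, 8.01, 7.66 and 6.52 in Th1). They make up nearly all of the summed myeloid signal, which was 902 in iTreg and 552 in Th1, and it was not tested that the 3 probes report these genes. Erythroid markers summed to 1.77 in iTreg and 0.787 in Th1, and the gamma-delta, NKT and innate lymphoid list to 2.34 in iTreg and 1.102 in Th1. The part of such cells in the differences above was not tested.

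The other 3 arrays, which all held cells that had first been Th1, show where these genes stood outside the pair. Foxp3 was well above background in Th1reg (4.12), besides iTreg, and not in rested or Th1+TGFb cells. Tgfbr1 read 1.06 in Th1reg, -1.25 in rested and -1.89 in Th1+TGFb. Nt5e read 3.84 in Th1reg, 1.12 in rested and 3.26 in Th1+TGFb, all above its Th1 level of -1.12. Pmepa1 read 2.47, -2.16 and 2.07 in that order, against -0.06 in Th1. Its level was above that of Th1 on the arrays of cells put in iTreg medium and below it in rested cells. The part of TGF-b in these levels was not tested. Klf2 read 5.69 in rested cells, close to its iTreg level, but -0.84 in Th1reg and -0.24 in Th1+TGFb. Tbx21 and Batf3 read far above their iTreg levels on all 3 arrays, between 4.23 and 4.86 and between 2.60 and 6.70, against 0.58 and -1.23 in iTreg. Il21 read 5.05 in Th1+TGFb, -3.02 in Th1reg and was not well above background in rested cells. Plac8 read between 4.38 and 9.04 on those arrays, against -2.14 in iTreg.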

How the data were processed

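The authors deposited scanner files made with Agilent Feature Extraction 10.7.1.1, per their headers and the submitters' processing notes. The deposited processed signal is an intensity on a linear scale, which per the file headers had its background subtracted and array-wide trends removed, and it is not scaled between arrays. All arrays lay on 1 slide with the same scan and feature extraction time, so neither separates the cultures; batches of culture, RNA preparation and labelling are not given in the labels. RNA had been extracted with a Promega ReliaPrep kit and labelled with Cy3, per the labels' protocols. The deposited value table, also an intensity, equals the processed signal divided by 1 constant per array (99.7% to 99.8% of probes within 0.01 log2 units). Its scale and direction are thus known and genes are not centred. Its column medians were 0.0925 for iTreg and 0.0762 for Th1. The sources used here do not say how the constants were chosen, but the column 75th percentiles were 1.003 for iTreg and 1.005 for Th1. The table served as an alternative, though its scaling is nearly that of the main setting.

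Of 59305 non-control spots, 109 on the iTreg and 142 on the Th1 array marked as outliers were left out, and none was saturated. Signals were averaged over the spots of a probe, divided by the array's 75th percentile and put on a log2 scale. Where a probe was not well above background it took the lowest signal well above background on that array, or its own where larger (-3.67 scaled log2 units in iTreg and -3.66 in Th1). Genes dim on both arrays (8211 of 21366) were left out, 1637 differences were bounds and 2 had no direction. RefSeq accessions named 28331 of 55681 probes through a gene table of GRCm38.p6; the array design uses the older build mm9, so array coordinates were not used. A gene was read from its brightest probe over the 5 arrays. Of 1127 other probes of genes 2-fold apart, 88.6% went the same way and 59.0% were 2-fold apart too.

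Named genes were Foxp3, Lrrc32, Tbx21 and Ifng, the 12 largest differences and 8 largest bounds each way without predicted or Y-linked genes and Xist, and members of 41 gene lists (751 genes, of which 653 could be compared, 80 were dim on both arrays and 18 had no matched probe). Those without a probe were Itgae, Cxcl11, Pycr1, Mx1, Mx2, Serpina3g, H2-Q6, H2-T22, Bcl2a1b, Kmt2a, Ighm, Trdc, Tcrg-C1, Tcrg-C2, Scart1, Trdv4, Hbb-bs and Ahsp. Members and lists were chosen with earlier results of these data known. Alternatives were the 75th percentile of detected probes, 8 spike-in probes, quantile normalization, the deposited table and limma normexp with an offset of 50. Normexp used median spot signals, as no mean spot signals were available here. Further alternatives were other filters on dim probes, the mean over probes and a 4-fold threshold. The scripts, in Python 3.11.15 with pandas 2.3.3 and R 4.3.3 with limma 3.58.1, were tested on simulated data. The number of arrays limits the precision. A few genes are not reported here by name, though the counts of their lists include them.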

Additional observations from a re-analysis of the deposited data

How the results depend on the processing

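No paired analysis was possible because each group has 1 array. The direction of Foxp3, Lrrc32, Tbx21 and Ifng was the same under every alternative that gave a value; Foxp3, dim in Th1, has none over probes well above background on both arrays. Foxp3 differed by 9.25 (detected probes), 9.21 (spike-ins), 6.69 (normexp) and 10.60 log2 units (no floor and no filter), against 8.91 in the main setting. Lrrc32 differed by 5.05, 5.002 and 5.19 with detected probes, spike-ins and quantiles. Tbx21 differed by -5.50, -5.54, -5.47 and -5.45, and Ifng by -8.62, -8.67, -8.71 and -8.83, with detected probes, spike-ins, quantiles and normexp. Genes 2-fold higher in iTreg numbered 2284 with detected probes, 2147 with spike-ins, 669 with normexp and 2331 with no floor and no filter, and 358 at 4-fold; genes lower numbered 1428 with detected probes, 1515 with spike-ins and 688 at 4-fold. Over all probes, 4654 of 28499 were higher and 4057 lower; 7128 and 2436 with detected probes, 1665 and 2641 with normexp, 8194 and 6278 with no floor and no filter, and 2583 were lower with spike-ins. Detected-probe and spike-in scaling move every measured difference by 1 amount, and normexp draws dim signals together by its offset; the cause of the other shifts was not tested.

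Of 41 list medians, 9 changed sign somewhere. With detected probes those of integrins and DNA replication became 0.0404 and 0.0662, with spike-ins DNA replication 0.0230, and with quantiles integrins 0.00726, T cell receptor genes 0.0307, the tricarboxylic acid cycle 0.13, DNA replication 0.27 and CD8 T and NK markers -0.25. The deposited table gave -0.0315 for CD8 T and NK markers. With no floor and no filter B cell markers became -0.33, myeloid markers -0.00025, CD8 T and NK markers -0.43 and erythroid markers -0.0162; over probes well above background on both arrays B cell markers became -0.13, the gamma-delta list 0.30 and erythroid markers -1.61. Naming probes only by RefSeq accession was not run as an alternative, being the main setting. Leaving out an array leaves no comparison. Dim signals limit the folds of genes near the lowest signal well above background.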

Other observations

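Probes that the array design names by intergenic coordinates, most of them for long non-coding RNA regions, were set apart from genes and leaned towards iTreg. Of 16194 such probes 5932 could be compared; 28.2% lay 2-fold or more above Th1 and 7.75% as far below, against 16.3% and 14.2% of all probes. The higher side was the larger under each scaling run, with 40.5% higher and 4.18% lower with detected probes, 39.0% and 4.50% with spike-ins, 19.2% and 10.6% with quantiles and 7.38% and 3.35% with normexp. The dimmest genes also leaned towards iTreg, and the part of low signal in this difference was not tested.

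Host transcripts of 2 microRNA genes, named after their values were seen, differed in opposite directions. Mir17hg, which carries a cluster of microRNAs, read 3.36 in iTreg and 1.44 in Th1 (3.80-fold higher), and Mir22hg read -1.42 in iTreg and 0.43 in Th1 (3.61-fold lower).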
